A study of Mus musculus with 18 samples.

Results

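The heat shock proteins and the DnaJ co-chaperones were followed on 18 mouse arrays. Members were all probe sets annotated to a single gene symbol of the Hsp70 (Hspa), small heat shock protein (Hspb), Hsp90, Hsph1, Hspd1, Hspe1 or Dnaja, Dnajb and Dnajc kind. This rule took 169 probe sets of 70 genes out of 45037 probe sets tested, of which 34945 carried a single symbol and covered 18193 genes. The rule used names only and no measured value. A further 3 probe sets listed Dnajc19 together with its pseudogene and were not counted. Hsp90ab1, the constitutive cytosolic Hsp90, is not analysed here.

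All mice were transgenic. A flag-tagged cDNA of the rat poly(A)-binding protein (PABP), followed by IRES-eGFP, replaced the orexin coding sequence in a bacterial artificial chromosome, which was injected into BXD-F2 (C57BL/6J X DBA/2J) pronuclei. The 9 IP arrays held RNA that anti-flag M2 beads recovered from brains perfused with 1% formaldehyde, and the 9 WB arrays held total RNA of whole brain. Ages of 11 and 14 weeks were given without a sample, and amplification (NuGEN WT-Ovation Pico) started from 5 ng of RNA. The extraction text describes only the IP, and nothing states that every sample was a separate animal. The p-values therefore refer to the scatter of these samples, part of which may be technical.

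Hsp70 proteins bind exposed hydrophobic stretches of unfolded proteins in cycles of ATP hydrolysis. J-domain proteins of the Dnaja, Dnajb and Dnajc classes bring clients and trigger that hydrolysis, and nucleotide exchange factors such as the Hsp110 proteins release ADP to end the cycle. Hsp90 completes the folding of kinases and steroid receptors, the Hspd1 and Hspe1 chaperonin folds proteins in mitochondria, and the small heat shock proteins hold unfolding proteins without ATP. In neurons, Hspa8 with Dnajc6 strips clathrin from endocytic vesicles, and Hspa8 with Dnajc5 keeps the synaptic vesicle release machinery folded.

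Many of these genes are induced through a heat shock element, repeats of GAA in alternating orientation bound by the heat shock factors, and the chaperones of the endoplasmic reticulum through the ER stress response element. Promoter windows of 250 bases before and 50 after the transcript start, from RefSeq (GRCm38.p6), were matched for 57 of the 70 member genes. Both strands were searched for GAANNTTCNNGAA and for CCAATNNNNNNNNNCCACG. The sequences below are shown because they are the motif matches of the members that the comparison turns on. Each is written 5′ to 3′ on the strand of the gene, and capitals mark the letters of a single match that equal its motif. Overlapping further matches in Hspa1a, Hspa1b and Hspd1 are not marked, and a further ER stress response element of Hsp90b1 is not printed.
Hspa1a (chr17:34972248-34972270, minus strand): gaaacTgCtgGAAgaTTCctggc
Hspa1b (chr17:34959330-34959352, minus strand): gaaacTgCtgGAAgaTTCctggc
Dnaja1 (chr4:40722334-40722356, plus strand): aaagccTCtaGAAaaTTCtacga
Dnajb6 (chr5:29735847-29735869, plus strand): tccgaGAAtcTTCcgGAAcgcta
Hspd1 (chr1:55088054-55088076, minus strand): ttccgGAAggTTCtaGAAcggac
Hspa5 (chr2:34772020-34772048, plus strand): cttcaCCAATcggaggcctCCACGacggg
Hsp90b1 (chr10:86705633-86705661, minus strand): caagcCCAATcgcaaggagCCACGcttcg
Dnajc3 (chr14:118937822-118937850, plus strand): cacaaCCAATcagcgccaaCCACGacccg

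The full heat shock element was found in 4 member genes, Dnajb6, Hspd1, Hspe1 and Hsph1, against 0.662% of all 27025 genes with a window. Allowing 1 letter to differ, it was found in 14 member genes, against 8.15% of all genes, and these included Hspa1a, Hspa1b, Dnaja1, Dnajb4, Dnajc8 and Hspb1. The windows of Hspa1a and Hspa1b share 296 of 300 bases, and the 23 bases shown for them are the same letters. Hspd1 and Hspe1 are divergent neighbours whose windows overlap by 285 bases, so the element printed for Hspd1 also lies in the window of Hspe1. The ER stress response element was found in 3 member genes, Hspa5, Hsp90b1 and Dnajc3, against 0.137% of all genes. A match describes the letters in the window and is not evidence of binding.

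Intensities below are given as the lowest, the median and the highest of the 9 arrays of a group. Differences are IP minus WB in log2(intensity + 16), from limma with Benjamini-Hochberg adjustment over all 45037 probe sets. A probe set is said to rise or fall where the adjusted p was under 0.05, and the brightest probe set of a gene is that with the highest mean over the 18 arrays. Hcrt, which encodes orexin and lent its regulatory sequence to the transgene, ran 73.8, 308 and 491 in IP and 156, 248 and 388 in WB, a difference of 0.21, SE 0.28, adjusted p = 0.568, and so did not pass the test. The 5 listed genes of orexin neurons had 10 probe sets, of which 2 rose (Nptx2 1420720_at by 1.26 and Lhx9 1419324_at by 1.13) and 2 fell (Pdyn by 1.30 and Slc17a6 1418610_at by 2.64). The brightest probe sets of the 12 neuron markers rose for 5 genes and fell for 7, those of 10 astrocyte markers rose for 4 and fell for 5, and those of 9 oligodendrocyte markers rose for 4 and fell for 3. Those of 10 microglia markers rose for 3 and fell for 5. The summed intensity of the neuron markers was 99790 to 180300 in IP and 87710 to 119600 in WB. It was 61290 to 125000 and 43090 to 58890 for the astrocyte markers. For oligodendrocyte markers it was 58790 to 112200 and 39930 to 54610, and for microglia markers 15220 to 23710 and 7881 to 11190. The summed intensity of the 13 endothelial and mural markers was 5860 to 8270 in IP and 8158 to 9823 in WB, with 1 rising and 7 falling. The 5 red blood cell markers summed to 450 to 1459 in IP and 5180 to 16310 in WB, with 0 rising and 3 falling. These sums took the brightest probe set of each gene, chosen with the IP arrays included. The mean intensity of the whole array was itself higher in IP, at 759.9 to 994.3 against 642.6 to 687 in WB. Higher sums in IP are therefore not particular to a cell type. No intensity was 0 in these arrays. In bulk RNA, fewer cells of a type and less RNA per cell cannot be told apart.

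Of the 169 chaperone probe sets, 26 rose in IP (15.4%), 73 fell (43.2%) and 70 did not pass the test. Among all probe sets tested, 14.2% rose and 30.8% fell, and among those with a single symbol 15.6% rose and 30.2% fell. The share of rising members was thus near the background, and the share of falling members was above it. The members' median difference was -0.45, against -0.23 for all probe sets. A change of at least 2-fold with no overlap between the groups was met upward by 13 members (7.69%) and downward by 18 (10.7%), where all probe sets gave 4.29% and 9.57%. Taking only the brightest probe set of each gene, 20 of the 70 genes rose (28.6%) and 17 fell (24.3%), with a median of 0.03, against 21.7% rising and 21.7% falling over all genes. Brightness was ranked with the IP arrays included, which leans toward probe sets high in IP, among members and all genes alike.

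The families differed in how their probe sets divided. In the Hsp70 family 9 of 39 probe sets rose and 14 fell, with a median difference of -0.32. The small heat shock proteins had 2 of 14 rising and 3 falling (median -0.34). Hsp90, Hsph1 and the chaperonin had 2 of 12 rising and 4 falling (median 0.09). Among the J-domain proteins, 2 of 13 Dnaja probe sets rose and 6 fell (median -0.24), 4 of 23 Dnajb rose and 14 fell (median -0.68), and 7 of 68 Dnajc rose and 32 fell (median -0.66). By brightest probe set, 7 of the 13 Hspa genes rose and 3 fell, and 5 of the 27 Dnajc genes rose and 6 fell. That choice includes the IP arrays and so leans toward probe sets high in IP. Ranked by WB alone, the brightest of Hspa9 and Hspa13 had no call, and those of Dnajc8, Dnajc13 and Dnajc21 were falls. These divisions were not compared by a test between families.

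**Figure D1:**
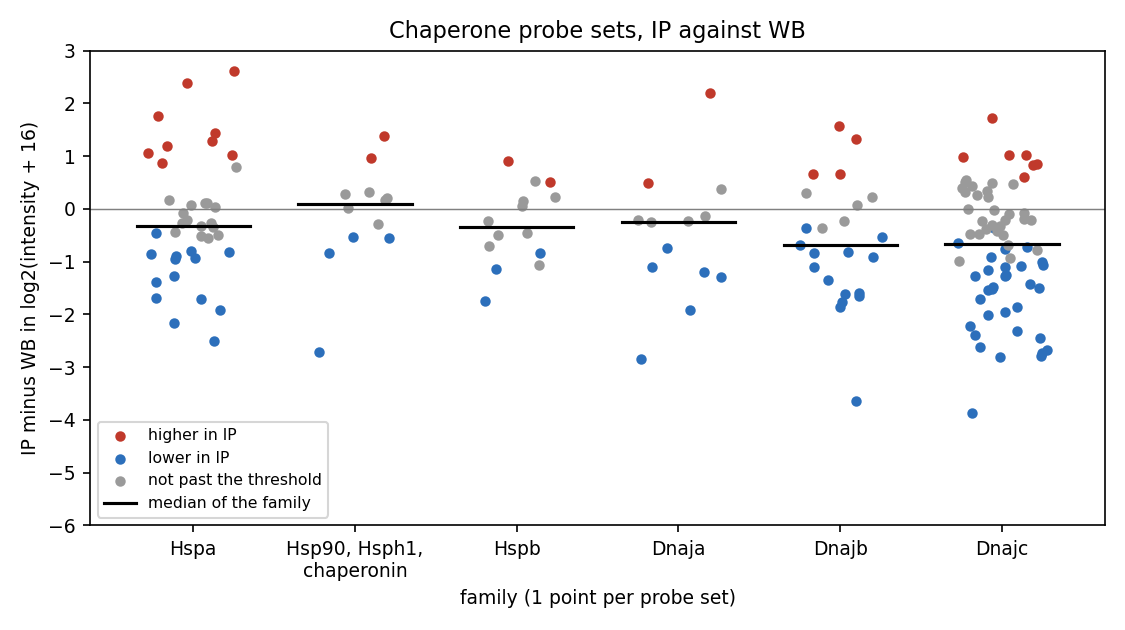
Difference between IP and WB in log2(intensity + 16) for each of the 169 chaperone probe sets (1 point each), by family, with the family median as a bar. Red points rose and blue points fell at adjusted p under 0.05; the rises reach 2.62 in the Hspa family and the falls reach -3.87 in the Dnajc family.

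How many members rose or fell depended on how the arrays were brought to a common level. As deposited, 26.3% of the members that passed the test were rises, against 31.6% over all probe sets. Quantile normalization gave 31 rises and 67 falls of members (31.6% rises, against 52.3% over all probe sets), centring each array on its median gave 47 and 45 (51.1% against 60.6%), and scaling on the 18 hybridization control probe sets gave 6 and 129 (4.44% against 4.04%). Under quantile normalization 18.3% of the members rose against 24.1% of all probe sets, so the rising share was near the background as deposited but below it there. It was 27.8% against 28.4% under median centring and 3.55% against 2.88% on the hybridization controls. The falling share was 39.6% against 22%, 26.6% against 18.5% and 76.3% against 68.4% in the same order. Over all probe sets the median difference was -0.23 as deposited, 0.11 after quantile normalization, 0.20 after median centring and -1.17 on the hybridization controls. The 6 probe sets of Hspa1a, Hspa1b, Dnaja1, Dnajb9, Dnajc10 and Hspa14 shown in the plot of 6 rises rose under all 4 scalings, and 44 of the 73 falls, in 29 genes, were falls under all 4. By family these were 7 of the 39 Hspa probe sets, 1 of 14 Hspb, 2 of 12 in the Hsp90, Hsph1 and chaperonin group, 3 of 13 Dnaja, 8 of 23 Dnajb and 23 of 68 Dnajc. No fall turned into a rise under any of the 4. How many of all probe sets kept a call under all 4 scalings was not counted. The 6 kept rises and 44 kept falls are therefore not a trait of these members. Of the 81 probe sets described singly below, 6 of 18 rises and 25 of 38 falls were called alike in all 4, and each of the 25 without a call was called in at least 1 other scaling. For these 81, calls that a scaling ended are given with the probe set.

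**Figure D2:**
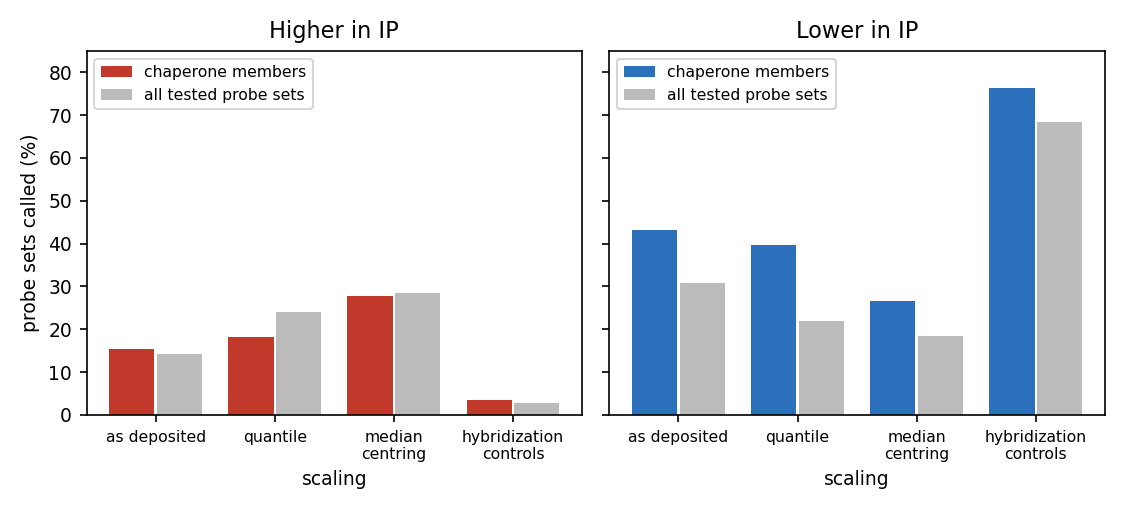
Share of probe sets that rose (left) and fell (right) in IP, in percent, for the 169 chaperone members and for all 45037 tested probe sets, under 4 scalings. The falling share of members exceeds that of all probe sets in each scaling (43.2% against 30.8% as deposited), while the rising share runs from 3.55% to 27.8% of members.

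The IP arrays of replicates 2, 5, 6 and 8 stood apart from the rest. Their hybridization controls, RNAs added in fixed amount before hybridization, averaged 14.51 to 15.31 in log2, against up to 13.95 on the other IP arrays and 13.05 to 13.54 in WB. Their mean intensity over the whole array was also higher, at 923.7 to 994.3 against 759.9 to 827.8 on the other IP arrays. These 4 arrays held the 4 highest IP values in 6 members, all among the 26 rises: Dnaja1 1459835_s_at, Dnajc8 1452683_at, Hsp90aa1 1438902_a_at, Hspa4 1435194_at, Hspa8 1455789_x_at and Hspa9 1418503_at. How often this held over all probe sets was not counted, so it is not a trait of these members. Without the 4 arrays 29 members rose and 72 fell, and 25 of the 26 rises and 63 of the 73 falls were kept.

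The stress-inducible cytosolic Hsp70 genes gave the largest rises of any member as deposited. Hspa1a and Hspa1b are neighbouring, nearly identical genes, low in unstressed cells and strongly induced by heat and by unfolded protein. Probe set 1452388_at of Hspa1a ran 1451, 2614 and 3712 in IP and 248, 513 and 655 in WB. Every IP array lay above every WB array, and the difference was 2.39 (SE 0.20, 5.24-fold, adjusted p = 5.55e-10). Hspa1b is represented by 3 probe sets, of which 1452318_a_at ran 1119, 3248 and 4731 in IP and 248, 423 and 811 in WB. The groups were again fully apart, with a difference of 2.62 (SE 0.27, 6.15-fold, adjusted p = 1.42e-08). The other Hspa1b probe sets overlapped between the groups. Probe set 1427126_at ran 41.3, 72.6 and 216 in IP and 34.1, 109 and 185 in WB (difference -0.32, SE 0.33, adjusted p = 0.446), and 1427127_x_at ran 30.9, 155 and 402 in IP and 91.3, 154 and 224 in WB (difference 0.03, SE 0.34, adjusted p = 0.949). Which of the copies each probe set measures was not tested, since their sequences are almost the same. Over the scalings the Hspa1a difference ran from 1.45 to 2.81 and that of 1452318_a_at from 1.68 to 3.05, and without the 4 IP arrays they were 2.31 and 2.48.

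**Figure D3:**
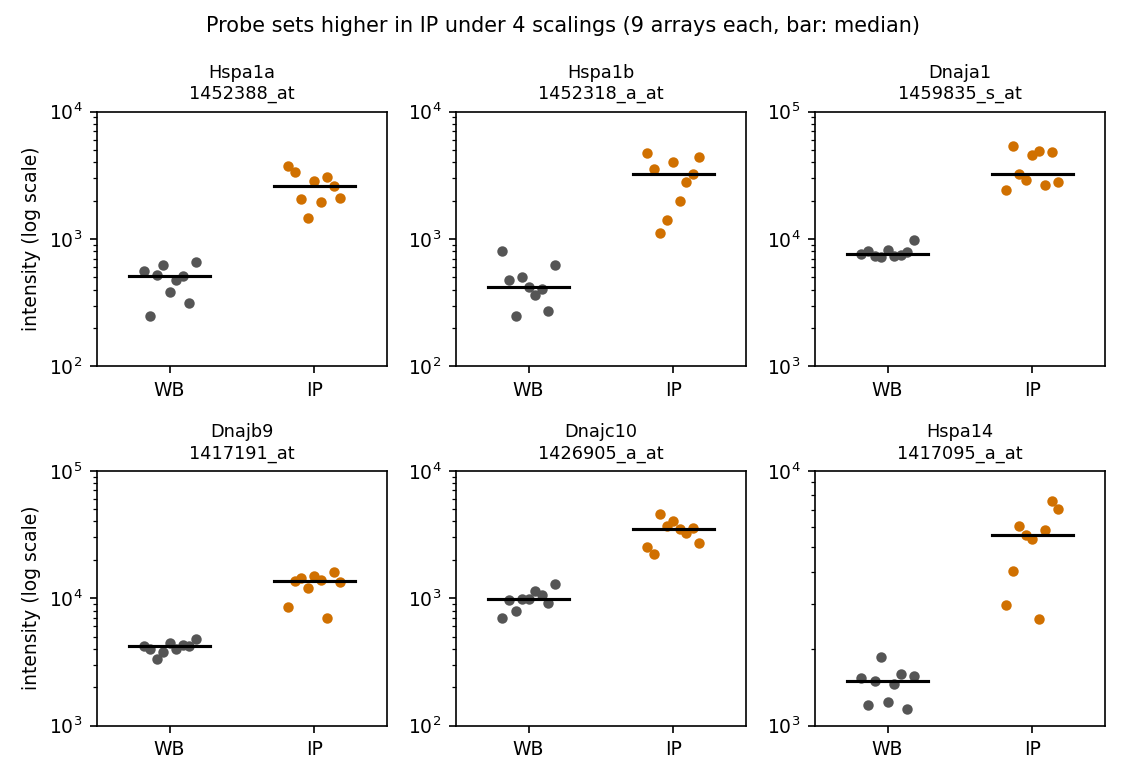
Deposited intensity (log axis) on each of the 9 WB and 9 IP arrays for the 6 probe sets that rose under all 4 scalings, with the group median as a bar. In each panel every IP point lies above every WB point; for Hspa1a the WB arrays run from 248 to 655 and the IP arrays from 1451 to 3712.

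Among the 14 probe sets of the other cytosolic Hsp70 proteins, 2 rose and 7 fell. This group and the role and compartment groups below were made after the values were seen. Their counts only describe, beside 14.2% rising and 30.8% falling over all probe sets. Hspa8, the constitutive Hsc70 that uncoats clathrin and serves chaperone-mediated autophagy, has 4 probe sets, of which 1 rose, 1 fell and 2 did not pass. The brightest, 1455789_x_at, ran 33720, 40460 and 89030 in IP and 18450, 25120 and 27190 in WB, with the groups apart. Its difference was 1.03 (SE 0.17, 2.04-fold, adjusted p = 2.17e-05), but -0.018 under quantile normalization and 0.089 on the hybridization controls, and its 4 highest IP values were those of the 4 arrays with bright hybridization controls (0.92 above the mean of the other 5). Probe set 1420623_x_at ran 8739, 10830 and 13380 in IP and 11400, 15260 and 18630 in WB, and fell by 0.46 (SE 0.12, 1.37-fold, adjusted p = 0.00233), with 5 IP arrays below the lowest WB array, a call lost under median centring (-0.03). Its companion 1420622_a_at ran 12020, 14740 and 19730 in IP and 14070, 19160 and 21930 in WB (difference -0.27, SE 0.12, adjusted p = 0.0656; without the 4 IP arrays -0.41, adjusted p = 0.00738, and also past the threshold without IP replicate 2 or 5 or WB replicate 4 or 6, at -0.31 to -0.32). The fourth, 1431182_at, ran 154, 378 and 592 in IP and 175, 592 and 911 in WB (difference -0.56, SE 0.30, adjusted p = 0.136), and passed without WB replicate 9 (-0.73, adjusted p = 0.0364).

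Hspa14, an Hsp70 of the ribosome-associated complex that acts on nascent chains, rose on its brightest probe set. Probe set 1417095_a_at ran 2623, 5615 and 7615 in IP and 1167, 1497 and 1860 in WB, with no overlap. Its difference of 1.77 (SE 0.18, 3.41-fold, adjusted p = 1.6e-08) was 0.83 to 2.19 over the 4 scalings. Against this, 1448586_at ran 84.1, 121 and 228 in IP and 197, 257 and 356 in WB and fell by 0.93 (SE 0.23, 1.91-fold, adjusted p = 0.00147), a call lost under quantile normalization (-0.49) and median centring (-0.51), and 1439826_at, at 7.07, 21.9 and 52 in IP and 13.2, 24.7 and 61.1 in WB, did not pass (difference -0.07, SE 0.26, adjusted p = 0.845). Hspa12a, a distant Hsp70 relative abundant in brain, fell on 3 of its 4 probe sets. Probe set 1436961_at ran 23.6, 248 and 508 in IP and 676, 772 and 872 in WB, all IP arrays below all WB arrays, and fell by 1.92 (SE 0.36, 3.78-fold, adjusted p = 9.7e-05). The pair 1447222_at (39.3, 229 and 739.9 in IP and 627, 702 and 809 in WB) and 1430040_at (33.6, 41.1 and 192 in IP and 59.2, 227 and 287 in WB) also fell, with differences of -1.71 (adjusted p = 0.000156) and -1.39 (adjusted p = 0.00224) and with overlap. The brightest, 1434051_s_at, ran 1168, 3222 and 3995 in IP and 2103, 2391 and 2714 in WB and did not pass (difference 0.17, SE 0.19, adjusted p = 0.48). Without the 4 IP arrays that difference was 0.54, adjusted p = 0.000286. Of the remaining cytosolic members, Hspa12b, known mainly from endothelial cells, and the testis-rich Hspa1l fell on their single probe sets, and Hspa2 did not pass. The Hspa1l call was lost under quantile normalization and median centring, and without any 1 of IP replicates 3, 4, 6, 7 and 8 or WB replicates 1, 2, 3, 5, 6, 8 and 9 (adjusted p 0.0546 to 0.0928). The fall of Hspa12b stood beside the falls of 7 of the 13 endothelial and mural markers, whose part in it was not tested.

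The Hsp110 proteins, which exchange nucleotide on Hsp70, had 1 rise and 5 falls among 11 probe sets of Hspa4, Hspa4l and Hsph1. The brightest Hspa4 probe set, 1435194_at, ran 28280, 38290 and 60000 in IP and 16080, 21670 and 23180 in WB, with the groups apart. The difference was 1.06 (SE 0.15, 2.08-fold, adjusted p = 3.06e-06) as deposited, -0.027 under quantile normalization and 0.11 on the hybridization controls, and the 4 arrays with bright hybridization controls lay 0.79 above the other 5 IP arrays. Probe set 1416147_at of the same gene ran 162, 453 and 1218 in IP and 1553, 2274 and 2690 in WB. Its groups were apart in the opposite direction, and it fell by 2.17 (SE 0.27, 4.49-fold, adjusted p = 3.2e-07). Neither 1416146_at (5035, 7582 and 10760 in IP and 7051, 9101 and 11650 in WB; difference -0.27, SE 0.14, adjusted p = 0.118) nor 1440575_at (35.1, 156 and 196 in IP and 16.7, 54.4 and 132 in WB; difference 0.79, SE 0.33, adjusted p = 0.0542) passed the test. Without the 4 IP arrays 1416146_at gave -0.42 (adjusted p = 0.0254), and without IP replicate 8 alone -0.34 (adjusted p = 0.0419). Probe set 1440575_at passed without IP replicate 4 or 5 or WB replicate 3 or 6, at 0.87 to 0.97. Hsph1, the heat-inducible member, fell on 1425993_a_at, which ran 3050, 4343 and 6537 in IP and 4945, 6644 and 8731 in WB, a difference of -0.52 (SE 0.14, 1.44-fold, adjusted p = 0.00302) that was not called under median centring (-0.10). Its brightest, 1423566_a_at, ran 6576, 7878 and 14870 in IP and 5117, 7186 and 8789 in WB and did not pass (difference 0.29, SE 0.14, adjusted p = 0.102). Hspa4l fell on 3 of its 5 probe sets and rose on none, and 2 of the 3 falls were lost under median centring. The other two passed as falls when 1 array was left out, 1418253_a_at without IP replicate 1 or 2 or WB replicate 6, and 1449010_at without IP replicate 6, 8 or 9.

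In the endoplasmic reticulum, 25 probe sets of 8 chaperones and J proteins that face the lumen gave 4 rises and 11 falls. Hspa5 (BiP), the Hsp70 of that compartment and the sensor of its stress response, was called in both directions. Probe set 1447824_x_at ran 1498, 2038 and 3202 in IP and 404, 1068 and 1203 in WB, with IP above WB throughout, and rose by 1.28 (SE 0.21, 2.44-fold, adjusted p = 2.21e-05), a call lost on the hybridization controls (0.34). Probe set 1427464_s_at ran 1743, 2589 and 4408 in IP and 3213, 4630 and 7080 in WB and fell by 0.85 (SE 0.16, 1.8-fold, adjusted p = 0.00015), with 7 IP arrays below the lowest WB array, a call lost under median centring (-0.425). The brightest, 1416064_a_at, ran 1813, 4485 and 7445 in IP and 4090, 5551 and 6896 in WB. Its difference of -0.49, SE 0.20, adjusted p = 0.0504 lay just outside the threshold, with a 95% interval from -0.90 to -0.07, and was -0.70 (adjusted p = 0.00575) without the 4 IP arrays. It also passed without IP replicate 1, 2, 5 or 8 or WB replicate 6 or 8, at -0.53 to -0.60. Hsp90b1 (Grp94), the Hsp90 of the same compartment, passed on neither probe set as deposited, though both fell under quantile normalization and on the hybridization controls and 1415889_a_at rose under median centring (0.43). Its 1415889_a_at ran 6681, 8761 and 12390 in IP and 7049, 8779 and 10200 in WB (difference 0.01, SE 0.12, adjusted p = 0.96, 95% interval -0.23 to 0.25), and 1438040_a_at ran 2726, 5761 and 8355 in IP and 5283, 6840 and 8288 in WB (difference -0.29, SE 0.16, adjusted p = 0.137, 95% interval -0.61 to 0.03; without IP replicate 1 -0.37, adjusted p = 0.0485).

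The J proteins of the endoplasmic reticulum included clear rises and clear falls. Dnajb9 (ERdj4), which helps clear misfolded proteins and returns Ire1 to its resting state, has a single probe set, 1417191_at, which ran 6946, 13700 and 16190 in IP and 3311, 4224 and 4799 in WB. It rose in every IP array over every WB array, by 1.58 (SE 0.14, 2.99-fold, adjusted p = 2.36e-09), and by 0.64 to 2.00 over the 4 scalings. Dnajc10 (ERdj5), a disulfide reductase that assists degradation, rose on 1426905_a_at, at 2211, 3498 and 4564 in IP and 695, 984 and 1293 in WB. The groups were apart and the difference was 1.73 (SE 0.15, 3.32-fold, adjusted p = 1.03e-09), or 0.79 to 2.16 over the scalings. Its 1452230_at ran 7.74, 21.1 and 61.7 in IP and 43.2, 62.5 and 217 in WB and fell by 0.91 (SE 0.30, 1.88-fold, adjusted p = 0.0143), a call lost without the 4 IP arrays (-0.54, adjusted p = 0.199), under quantile normalization (-0.42) and under median centring (-0.49), and 1426904_s_at ran 418, 641 and 1082 in IP and 494, 720.4 and 892 in WB (difference -0.08, SE 0.18, adjusted p = 0.751).

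Dnajc3 (p58IPK), a co-chaperone of BiP that also inhibits the eIF2α kinases, fell on 3 of 5 probe sets. Probe set 1449373_at ran 23.8, 82.5 and 164 in IP and 447, 601 and 810.5 in WB, and 1419163_s_at ran 40.2, 122 and 262 in IP and 434, 530.2 and 713 in WB. In both, all IP arrays lay below all WB arrays, with differences of -2.74 (SE 0.28, 6.68-fold, adjusted p = 1.57e-08) and -2.02 (SE 0.27, 4.05-fold, adjusted p = 9.4e-07). The third, 1449372_at, ran 378, 550.2 and 953 in IP and 758, 922 and 1120 in WB and fell by 0.75 (SE 0.18, 1.69-fold, adjusted p = 0.00132), a call lost under median centring (-0.33). The brightest, 1433887_at, ran 801, 2032 and 3365 in IP and 1443, 1749 and 1964 in WB and did not pass (difference 0.26, SE 0.19, adjusted p = 0.267). Without IP replicate 5 the difference was 0.43, adjusted p = 0.0111, and without the 4 IP arrays 0.40, adjusted p = 0.0207. Probe set 1419162_s_at ran 492, 775 and 1183 in IP and 759.5, 932 and 1324 in WB (difference -0.24, SE 0.16, adjusted p = 0.247). Of the other genes of this compartment, Hspa13 rose on its brightest probe set and fell on another, Dnajb11 fell on its only one, and Dnajc1 fell on 4 of 6. The Dnajb11 call (-0.36) was lost under median centring and without any 1 array other than IP replicates 1, 2, 5 and 6 and WB replicates 6 and 7 (adjusted p 0.0551 to 0.0899). For Dnajc1, 3 of the 4 calls were lost under quantile normalization and median centring. Its 1459791_at was also lost without the 4 IP arrays (-0.78, adjusted p = 0.0789), 1453372_at without IP replicate 1, 3, 6 or 8 or any WB replicate but the third, and 1447649_x_at passed as a fall without IP replicate 1, 6 or 7 or WB replicate 3.

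The mitochondrial chaperones and J proteins grouped here gave 2 rises and 5 falls among 12 probe sets of 5 genes. These were Hspa9, Hspd1, Hspe1, Dnaja3 and Dnajc15. Dnajc11 was not counted with them, and it fell on 3 of its 4 probe sets, under all 4 scalings. Dnajc4, Dnajc28 and Dnajc30, also not counted, did not pass as deposited. Hspa9 (mortalin), the Hsp70 of the matrix and motor of protein import, rose on 1418503_at, which ran 3583, 4632 and 7328 in IP and 1845, 1976 and 2581 in WB. The groups were apart and the difference was 1.20 (SE 0.14, 2.29-fold, adjusted p = 9.66e-08), or 0.255 and not called on the hybridization controls. Probe set 1447728_x_at, at 224, 372 and 545 in IP and 71, 131 and 221 in WB, was also apart and rose by 1.43 (SE 0.25, 2.7-fold, adjusted p = 3.74e-05), a call also lost on the hybridization controls (0.49). Probe set 1431274_a_at ran 26.5, 167 and 401 in IP and 165, 279.6 and 366 in WB and fell by 0.94 (SE 0.36, 1.92-fold, adjusted p = 0.035), but this call was lost without IP replicate 2, 5 or 9 or WB replicate 2, 3, 7, 8 or 9 (adjusted p 0.0503 to 0.0723), without the 4 IP arrays (adjusted p = 0.064), and under quantile normalization (-0.48) and median centring (-0.515). Neither 1418504_at (2308, 3108 and 4822 in IP and 2542, 2939 and 3814 in WB; difference 0.11, SE 0.15, adjusted p = 0.59) nor 1453811_at (63, 246 and 324 in IP and 36.5, 294 and 466 in WB; difference -0.35, SE 0.38, adjusted p = 0.478) passed.

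The chaperonin genes Hspd1 (Hsp60) and Hspe1 (Hsp10), whose divergent promoters share the heat shock element shown above, gave falls or no call. Hspd1 has 1 probe set, 1426351_at, which ran 2223, 3066 and 5883 in IP and 3752, 4728 and 5992 in WB and fell by 0.55 (SE 0.16, 1.47-fold, adjusted p = 0.00548), with 6 IP arrays under the lowest WB array. The Hspd1 call was lost under median centring, where the difference was -0.13. Hspe1 fell on 1422579_at, which ran 26.9, 156 and 539.8 in IP and 519.5, 859.6 and 1072 in WB, a difference of -2.72 (SE 0.42, 6.57-fold, adjusted p = 9.7e-06), with 8 IP arrays under the lowest WB array. Its brightest, 1450668_s_at, ran 1865, 3444 and 5737 in IP and 2458, 2981 and 3440 in WB, with overlap, and did not pass (difference 0.22, SE 0.16, adjusted p = 0.273). Dnajc15, a J protein of the import motor, fell on its only probe set, and Dnaja3 fell on 1 of 3, 1420629_a_at. That call was lost without the 4 IP arrays (-0.54, adjusted p = 0.0917) and under median centring, while 1449935_a_at passed as a fall without the 4 arrays (-0.42, adjusted p = 0.034).

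Cytosolic Hsp90 was represented by the inducible Hsp90aa1 alone, with 2 rises, 1 fall and 2 probe sets without a call. The brightest, 1438902_a_at, ran 19310, 22360 and 27400 in IP and 9828, 11270 and 13040 in WB. It was higher in all 9 IP arrays, by 0.97 (SE 0.10, 1.96-fold, adjusted p = 1.19e-08), but gave -0.15 under quantile normalization and 0.028 on the hybridization controls, and its 4 highest values were on the 4 arrays with bright hybridization controls. Probe set 1441827_x_at ran 363, 878 and 1238 in IP and 165, 301 and 422 in WB and rose by 1.39 (SE 0.26, 2.62-fold, adjusted p = 8.96e-05), with 7 IP arrays above the highest WB array, a call lost on the hybridization controls (0.45). In contrast 1426645_at, at 4362, 6263 and 9199 in IP and 9443, 11990 and 12710 in WB, was lower in every IP array than in any WB array and fell by 0.84 (SE 0.14, 1.79-fold, adjusted p = 1.73e-05). Neither 1437497_a_at (5995, 8525 and 12530 in IP and 5706, 7222 and 8262 in WB; difference 0.32, SE 0.14, adjusted p = 0.071) nor 1433251_at (146, 179 and 355 in IP and 102, 215 and 277 in WB; difference 0.18, SE 0.26, adjusted p = 0.609) passed. The former passed without IP replicate 7 (0.37, adjusted p = 0.0305) or 9 (0.38, adjusted p = 0.0253).

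The small heat shock proteins had 8 genes on 14 probe sets, of which 9 did not pass the test. Hspb1 (Hsp27), which stabilises actin filaments and is present in vessel walls, fell on 1422943_a_at. That probe set ran 10.3, 59.2 and 297 in IP and 171, 285 and 351 in WB, with 7 IP arrays below the lowest WB array, and fell by 1.74 (SE 0.40, 3.35-fold, adjusted p = 0.000819). Its 1425964_x_at ran 17.1, 52 and 259.9 in IP and 19.9, 33.3 and 77 in WB (difference 0.53, SE 0.37, adjusted p = 0.254). Hspb2 and Hspb8 each fell on 1 probe set, while Hspb6 and Hspb11 each rose on 1. Without the 4 IP arrays the calls of Hspb2 (-0.69, adjusted p = 0.179), Hspb8 1417014_at (-0.59, adjusted p = 0.0597) and Hspb11 1453016_at (0.345, adjusted p = 0.236) were lost and that of Hspb6 was kept. The Hspb2 and Hspb8 calls were also lost under quantile normalization and median centring, and the Hspb6 and Hspb11 calls on the hybridization controls. Hspb11 lost its call without IP replicate 2, 4, 8 or 9 or WB replicate 1, 2, 3, 4, 6, 7 or 9 as well (adjusted p 0.0522 to 0.0828). Probe set 1417013_at of Hspb8 passed as a fall without IP replicate 1, 4 or 5, and Hspb7 without IP replicate 5 or the 4 IP arrays. Of the 13 endothelial and mural markers given above 7 fell and 1 rose by their brightest probe sets, and their part in the Hspb1 and Hspb2 falls was not tested.

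Dnaja1 (Hdj2), a main cytosolic partner of Hspa8, was called in both directions. Probe set 1459835_s_at ran 24280, 32320 and 53420 in IP and 7207, 7628 and 9800 in WB. It lay far above WB in every IP array, by 2.19 (SE 0.15, 4.57-fold, adjusted p = 1.65e-11), with values of 1.11 to 2.62 over the 4 scalings and 1.83 without the 4 bright arrays, which held its highest values. Probe set 1416288_at ran 2401, 4099 and 4724 in IP and 6850, 8030 and 9310 in WB, below WB in every IP array, and fell by 1.10 (SE 0.13, 2.14-fold, adjusted p = 1.57e-07). The third, 1460179_at, ran 2707, 4301 and 5566 in IP and 2438, 3008 and 3171 in WB with overlap and rose by 0.49 (SE 0.14, 1.4-fold, adjusted p = 0.00561), but was not called under quantile normalization (0.085) and fell under the hybridization control scaling, where it gave -0.46.

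Dnaja2, a close relative of Dnaja1, fell on 1417183_at, which ran 439.7, 625 and 1096 in IP and 2315, 2675 and 2897 in WB. All IP arrays were below all WB arrays, and the difference was -1.91 (SE 0.16, 3.76-fold, adjusted p = 7.72e-10). Probe set 1457233_at ran 10.3, 22.5 and 117 in IP and 69.1, 139.9 and 170 in WB and fell by 1.28 (SE 0.35, 2.43-fold, adjusted p = 0.00373), a call lost under quantile normalization (-0.80). Neither the brightest, 1429476_s_at (2578, 3826 and 6874 in IP and 3943, 4430 and 5674 in WB; difference -0.22, SE 0.15, adjusted p = 0.25), nor 1417182_at (616, 1014 and 1721 in IP and 629, 764 and 1098 in WB; difference 0.38, SE 0.17, adjusted p = 0.0689) passed. Without the 4 IP arrays 1429476_s_at gave -0.43, adjusted p = 0.0106, and 1417182_at passed without IP replicate 2 (0.48, adjusted p = 0.0133) or WB replicate 8 (0.44, adjusted p = 0.0466). Dnaja4 fell on 2 of 3 probe sets. Without the 4 IP arrays the fall of 1418591_at was lost (-0.295, adjusted p = 0.226), as it was under quantile normalization and median centring, and 1434196_at passed (-0.36, adjusted p = 0.027), as it did without IP replicate 2.

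The Hspa1a probe set and 1 of the 3 Hspa1b probe sets rose, while Dnajb1 (Hsp40), their stress-inducible partner, fell on both of its own as deposited. Its brightest probe set, 1416755_at, ran 1906, 4941 and 8198 in IP and 6818, 9082 and 12150 in WB, with 8 IP arrays under the lowest WB array, and fell by 1.09 (SE 0.21, 2.13-fold, adjusted p = 0.000124). Its 1416756_at ran 67.2, 150.4 and 236 in IP and 202, 283 and 418 in WB and fell by 0.92 (SE 0.25, 1.89-fold, adjusted p = 0.00358), a call lost under quantile normalization (-0.50) and median centring (-0.495). Dnajb4, another heat-inducible J protein, fell on 1431734_a_at, which ran 45.6, 192 and 462 in IP and 514, 651 and 772 in WB with the groups apart, a difference of -1.65 (SE 0.36, 3.14-fold, adjusted p = 0.000579). Its 1439524_at ran 81.5, 115 and 296 in IP and 112, 238 and 303 in WB and fell by 0.68 (SE 0.26, 1.6-fold, adjusted p = 0.0352), a call lost without any of IP replicates 3 to 7 or WB replicates 2, 5, 7 and 8 (adjusted p 0.0503 to 0.0679), without the 4 IP arrays (adjusted p = 0.0852), under quantile normalization (adjusted p = 0.49) and under median centring (adjusted p = 0.429). The brightest, 1451177_at, ran 4235, 4968 and 8586 in IP and 4320, 4767 and 6569 in WB and did not pass (difference 0.07, SE 0.14, adjusted p = 0.707).

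Dnajb5 (Hsc40), a relative of Dnajb1, was called in both directions. Probe set 1450436_s_at ran 4395, 6921 and 8907 in IP and 2003, 2758 and 3350 in WB, IP above WB throughout, and rose by 1.32 (SE 0.14, 2.5-fold, adjusted p = 4.59e-08), a call lost on the hybridization controls (0.38). Probe set 1421961_a_at ran 219, 311 and 607 in IP and 649, 778 and 1206 in WB, IP below WB throughout, and fell by 1.36 (SE 0.19, 2.56-fold, adjusted p = 2.27e-06), and 1421962_at (82.8, 339.9 and 460.5 in IP and 337, 519 and 834 in WB) fell by 0.81 (adjusted p = 0.0145), a call lost under quantile normalization (-0.46) and median centring (-0.39). Dnajb6, which suppresses the aggregation of polyglutamine proteins and is made as nuclear and cytosolic isoforms, had the widest span of the Dnajb genes. Its brightest probe set, 1448234_at, ran 5133, 6840 and 9170 in IP and 3802, 4263 and 4792 in WB, with the groups apart. It rose by 0.67 (SE 0.12, 1.59-fold, adjusted p = 8.51e-05), but gave 0.016 under quantile normalization and -0.28 under the hybridization control scaling. Probe set 1429776_a_at ran 15.1, 471 and 1186 in IP and 3600, 3900 and 4145 in WB. The WB arrays were within a narrow range and the IP arrays scattered far below it, for a difference of -3.65 (SE 0.47, 12.5-fold, adjusted p = 7.56e-07). Both 1429777_at (6.89, 41.6 and 402 in IP and 157, 297 and 362 in WB) and 1434035_at (28.9, 102 and 353 in IP and 291, 378 and 459.6 in WB) also fell, with differences of -1.77 (adjusted p = 0.00101) and -1.61 (adjusted p = 8.24e-05). Of the other Dnajb genes, Dnajb12 rose on 1 of 2 probe sets, Dnajb14 fell on both, and Dnajb2 and Dnajb7 fell on their single ones. The Dnajb2 call was lost without the 4 IP arrays (-0.38, adjusted p = 0.186) and under median centring, that of Dnajb12 on the hybridization controls, and that of Dnajb14 1429468_at under quantile normalization and median centring. Dnajb3, Dnajb8 and Dnajb13 did not pass.

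The J proteins of synapse and endocytosis, Dnajc5 and Dnajc6, gave 2 rises and 6 falls among 9 probe sets, with a median difference of -1.85. This group of 2 genes was made after the values were seen, and it holds the largest fall of any member. Over all probe sets 14.2% rose and 30.8% fell. Dnajc5, the cysteine string protein of synaptic vesicles, fell on 4 of its 5. Probe set 1448850_a_at ran 95.2, 202 and 575 in IP and 1339, 1539 and 2216 in WB, 1448851_a_at ran 66, 444 and 841 in IP and 1537, 1745 and 1944 in WB, and 1460498_a_at ran 24.8, 305 and 578 in IP and 753, 872 and 1022 in WB. In all of these the IP arrays were below every WB array, with differences of -2.68 (SE 0.27, 6.42-fold, adjusted p = 1.13e-08), -2.22 (SE 0.36, 4.67-fold, adjusted p = 1.47e-05) and -1.96 (SE 0.34, 3.88-fold, adjusted p = 4.2e-05). The fourth, 1436179_a_at, ran 22.2, 166 and 679 in IP and 599, 730.1 and 962 in WB, with 8 IP arrays below the lowest WB array, and fell by 1.85 (SE 0.35, 3.61-fold, adjusted p = 0.000113). Only the brightest, 1436180_at, went the other way. It ran 2639, 4682 and 7934 in IP and 2304, 2521 and 3114 in WB, with 7 IP arrays above the highest WB array, and rose by 0.85 (SE 0.18, 1.8-fold, adjusted p = 0.00042), but gave -0.10 under the hybridization control scaling.

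Dnajc6 (auxilin), which recruits Hspa8 to clathrin coats, had the largest fall of any member as deposited. Probe set 1431216_s_at ran 13.2, 104 and 314 in IP and 1146, 1337 and 1683 in WB. All IP arrays lay below all WB arrays, and the difference was -3.87 (SE 0.41, 14.6-fold, adjusted p = 3.65e-08). Its brightest probe set, 1433596_at, ran 5694, 7407 and 10840 in IP and 3255, 3809 and 4226 in WB. There every IP array lay above every WB array, and the rise was 1.03 (SE 0.12, 2.04-fold, adjusted p = 1.65e-07), a call lost on the hybridization controls (0.085). Probe set 1438896_at ran 96.5, 379 and 1352 in IP and 476, 695 and 990.1 in WB and fell by 1.01 (SE 0.32, 2.01-fold, adjusted p = 0.0121), a call lost under quantile normalization (-0.71) and median centring (-0.58), and 1431215_at ran 7.25, 17.7 and 128 in IP and 9.44, 77.4 and 135 in WB (difference -0.93, SE 0.40, adjusted p = 0.0611). The latter passed without IP replicate 4, 5 or 6 or without WB replicate 3 or 9 (adjusted p from 0.0147 to 0.0421), and without the 4 IP arrays (-1.11, adjusted p = 0.0364).

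**Figure D4:**
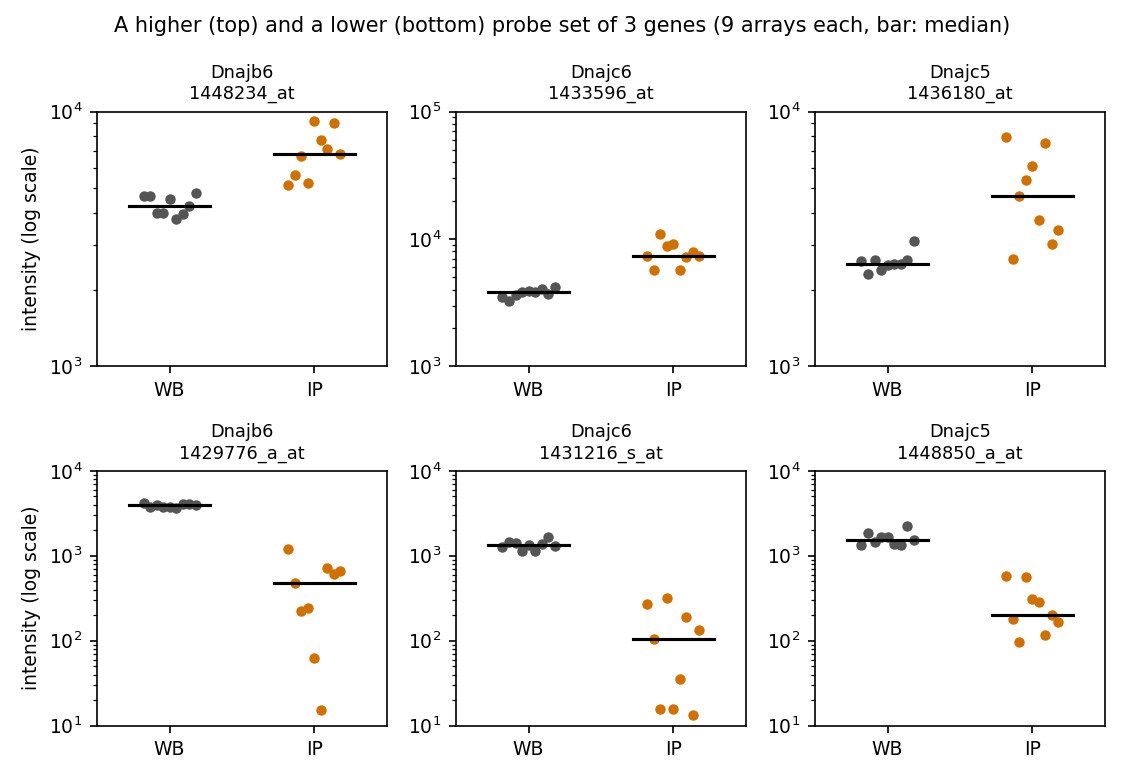
Deposited intensity (log axis) on each of the 9 WB and 9 IP arrays for a probe set that rose (top) and one that fell (bottom) of Dnajb6, Dnajc6 and Dnajc5, with the group median as a bar. For Dnajc6 the IP median is 7407 against 3809 in WB at the top, and 104 against 1337 at the bottom, where the IP points are widely scattered.

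Dnajc18, a membrane J protein of the endoplasmic reticulum that was not counted with that compartment above, fell on all 3 of its probe sets. Probe set 1425076_at ran 8.6, 59.6 and 84 in IP and 309.8, 357 and 548 in WB and 1434863_at ran 91.2, 194 and 489 in IP and 1157, 1429 and 1878 in WB. Both separated the groups completely, with differences of -2.82 (SE 0.32, 7.04-fold, adjusted p = 1.17e-07) and -2.62 (SE 0.26, 6.14-fold, adjusted p = 1.01e-08). The third, 1425077_at, ran 83.7, 193 and 365 in IP and 308, 456 and 532 in WB and fell by 1.16 (SE 0.24, 2.24-fold, adjusted p = 0.000286). All 3 fell under each of the 4 scalings. Dnajc27 and Dnajc24 fell on both of their probe sets, also under all 4 scalings. Dnajc16 rose on both of its probe sets, and Dnajc2 and Dnajc8 rose on 1 each, and all of these rises were lost on the hybridization controls. Leaving out WB replicate 9 ended the call of Dnajc16 1436209_at, and leaving out IP replicate 6, 7 or 9 or WB replicate 2 or 5 that of Dnajc2 1454219_at, while Dnajc2 1448794_s_at passed as a rise without IP replicate 5 or 8 or the 4 IP arrays. In all, 27 Dnajc genes were measured by 68 probe sets, of which 29 did not pass the test.

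Probe sets of the same gene often disagreed. Of the 45 member genes with several probe sets, 14 (31.1%) had at least 1 that rose and 1 that fell, against 1985 of 9010 genes (22%) over the arrays. The members had a median of 3 probe sets per such gene and all genes a median of 2. The 14 genes were Dnaja1, Dnajb5, Dnajb6, Dnajc5, Dnajc6, Dnajc8, Dnajc10, Hsp90aa1, Hspa4, Hspa5, Hspa8, Hspa9, Hspa13 and Hspa14. In 13 of the 14 the probe set that was brightest over the 18 arrays was one that rose, and for Hspa5 it was one without a call. Ranked by WB alone, the brightest rose in 9 of the 14 (64.3%), against 63.1% of all genes called in both directions. A further 17 genes had only falls beside probe sets without a call, 4 had only rises beside them, 5 had falls throughout, 1 had rises throughout and 4 had no call. Under quantile normalization 9 of the 14 were still called both ways, under median centring 8 and under the hybridization controls 3.

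**Figure D5:**
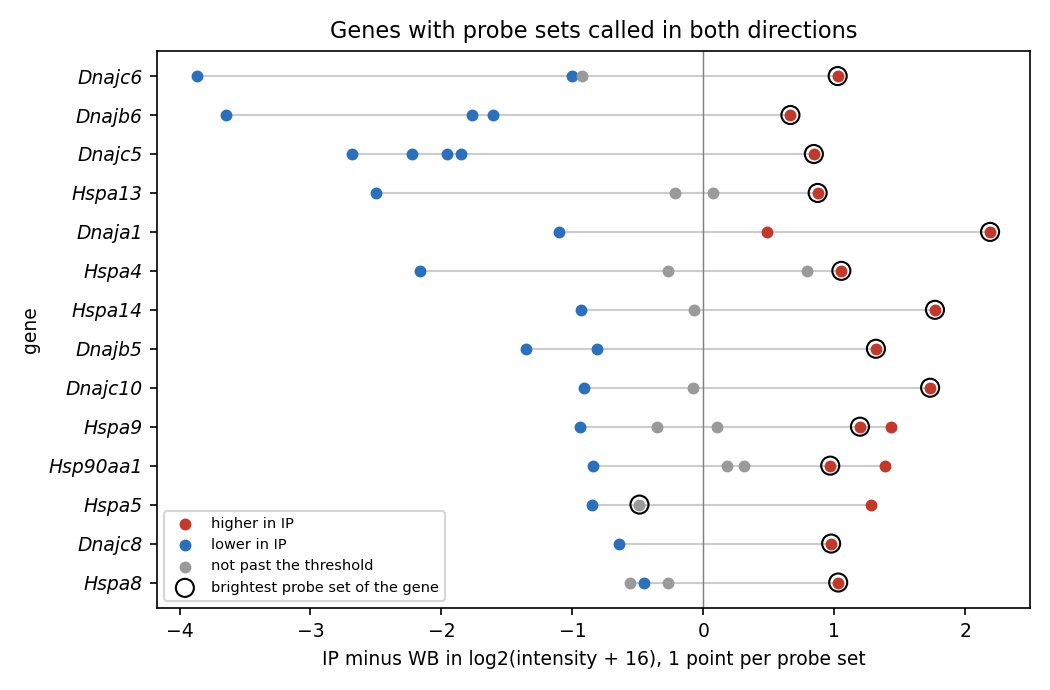
Difference between IP and WB in log2(intensity + 16) for every probe set of the 14 genes that had both a rise and a fall, with a ring around the probe set brightest over the 18 arrays. The ringed points rose in all genes but Hspa5, and the span reaches from -3.87 to 1.03 in Dnajc6.

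Brightness and probe set type went along with the calls. The median WB intensity was 1600 for members that rose, 557 for members that fell and 410 for those without a call, against 505, 425 and 147 over all probe sets. Probe sets ending in _x_at, which hold probes that may match other transcripts, rose in 4 of 10 members and fell in 1, and over all genes in 42.7% and 14.3%. Those ending in plain _at rose in 16 of 115 members and fell in 52 (12.9% and 30% over all genes), those in _a_at rose in 4 of 27 and fell in 14 (16.2% and 39.8%), and those in _s_at rose in 2 of 17 and fell in 6 (25.3% and 28.3%). IP arrays varied more than WB arrays in 151 of the 169 members, with median SDs of 0.64 and 0.26. The larger spread in IP was general, with median SDs of 0.74 and 0.34 over all probe sets. In 16 members the median was under 100 in both groups, and 2 of these were called. The part of brightness, probe type and spread in the calls was not tested.

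Other genes of the chaperone system also gave both rises and falls. Of 58 listed genes 53 were measured by 117 probe sets, of which 25 rose (21.4%) and 47 fell (40.2%) as deposited (median difference -0.37). Over all probe sets tested, 14.2% rose and 30.8% fell. Most of the 25 pathway rises were not called on the hybridization controls, with the counts given in the closing section. For single pathway probe sets, values under the other scalings are not given here. The heat shock factors and their binding protein had 0 of 6 rising and 2 falling (33.3%). Hsp70 exchange factors and partners had 4 of 27 rising (14.8%) and 13 falling (48.1%), and Hsp90 cochaperones 6 of 33 (18.2%) and 11 (33.3%). The cytosolic chaperonin TRiC with prefoldin had 13 of 39 rising (33.3%) and 15 falling (38.5%). Crystallins and J proteins under other symbols had 2 of 12 rising (16.7%) and 6 falling (50%).

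Among these the largest rises were those of Cct2, Ahsa2 and Hyou1. Cct2, a TRiC subunit, rose on 1433534_a_at (8543, 12580 and 15120 in IP and 2451, 3543 and 3989 in WB), with the groups apart, by 1.86 (SE 0.13, 3.63-fold, adjusted p = 3.03e-11), and on 1433535_x_at (8900, 10300 and 14390 in IP and 4002, 4527 and 4994 in WB) by 1.21 (adjusted p = 1.18e-09). Its 1416037_a_at (52.2, 386 and 471 in IP and 641, 916 and 1511 in WB) fell by 1.75 (adjusted p = 3.03e-05). Ahsa2, named for its likeness to the Hsp90 activator Aha1, ran 2229, 2682 and 3729 in IP and 643, 897 and 1090 in WB and rose by 1.74 (SE 0.14, 3.35-fold, adjusted p = 4.88e-10), with no overlap. Hyou1 (Grp170), the exchange factor of BiP, rose on 1423291_s_at (2182, 3029 and 5229 in IP and 701, 1150 and 1419 in WB) by 1.69 (SE 0.18, 3.24-fold, adjusted p = 2.39e-08). Its 1451913_a_at (16.5, 109 and 284 in IP and 315, 416 and 549 in WB) fell by 2.00 (adjusted p = 4.5e-05), and 1423290_at (71.4, 316 and 866 in IP and 267, 298 and 474 in WB) did not pass (difference -0.30, SE 0.34, adjusted p = 0.494).

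The largest falls were those of Stub1, Pfdn5 and Cryab. Stub1 (CHIP), the ubiquitin ligase that tags clients of Hsp70 and Hsp90, fell on both probe sets. Probe set 1416580_a_at ran 14.5, 94.2 and 319 in IP and 1231, 2271 and 2933 in WB and fell by 4.30 (SE 0.33, 19.7-fold, adjusted p = 1.52e-10), and 1434412_x_at ran 35.8, 446 and 855 in IP and 1099, 1370 and 2036 in WB and fell by 2.18 (SE 0.41, 4.52-fold, adjusted p = 9.61e-05). Both separated the groups. Pfdn5, a prefoldin subunit, fell on 1460637_s_at (119, 189 and 712 in IP and 1913, 2139 and 2876 in WB; difference -3.16, SE 0.27, adjusted p = 7.03e-10) and on 1415736_at (41, 484 and 649.9 in IP and 2184, 2625 and 2775 in WB; difference -2.74, SE 0.33, adjusted p = 2.25e-07). It rose on 1438357_at (66.9, 293 and 623 in IP and 46.6, 123 and 151 in WB) by 1.24 (adjusted p = 0.00355) and on 1438358_x_at (159.5, 479 and 1163 in IP and 111, 181 and 257 in WB) by 1.19 (adjusted p = 0.00106), while 1422297_at (50.8, 113 and 193 in IP and 33.5, 71.1 and 90.8 in WB) did not pass. Cryab, the small heat shock protein αB-crystallin of oligodendrocytes and astrocytes, fell on 1416455_a_at (4.06, 89.4 and 261 in IP and 412, 634 and 1016 in WB), a difference of -2.80 (SE 0.43, 6.97-fold, adjusted p = 8.88e-06). Its brightest probe set, 1434369_a_at (9050, 12750 and 19300 in IP and 4466, 5892 and 6780 in WB), rose by 1.26 (adjusted p = 1.13e-07), and 1435837_at (23.4, 75.8 and 354 in IP and 34.7, 84.1 and 133 in WB) did not pass. By brightest probe set the astrocyte markers had 4 rises and 5 falls, and the oligodendrocyte markers 4 and 3. Over all their probe sets the astrocyte markers had 9 rises and 18 falls, and the oligodendrocyte markers 8 and 11. Both summed intensities were higher on every IP array than on any WB array. So was the mean intensity of the whole array (759.9 to 994.3 in IP, 642.6 to 687 in WB). The part of these markers in the Cryab values was not tested.

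Whether the inducible chaperones varied together between arrays of one group was examined for Hspa1b (1452318_a_at) and the brightest probe sets of 10 partners, within IP and within WB (n = 9 each). None of the 20 pairs passed after Benjamini-Hochberg adjustment of exact two-sided permutation p-values, and 2 had an unadjusted p under 0.05 by Pearson and 2 by Spearman. Hspa1b and Hspa5 had r = 0.85 within IP (exact permutation p = 0.0031, adjusted p = 0.0621) and rho = 0.82 (exact permutation p = 0.0108, adjusted p = 0.215). Without the 2 arrays farthest from the Hspa1b median r was 0.80. Hspa1b and Hspa1a had r = 0.70 within IP (exact permutation p = 0.0359, adjusted p = 0.359) and rho = 0.70 (exact permutation p = 0.0433, adjusted p = 0.433), and r fell to 0.48 without the 2 farthest arrays. Within WB the same pairs gave r = 0.51 (exact permutation p = 0.165, adjusted p = 0.824) and r = 0.35 (exact permutation p = 0.35, adjusted p = 0.924). The IP arrays divide into the 4 with bright hybridization controls and 5 others, groups too small for a correlation of their own.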

How the data were processed

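RNA of 9 IP and 9 WB samples was measured on arrays. The deposited values are intensities on a linear scale from the authors. MAS5 made them according to the submitters' processing notes, where no version stands. The mean of each array without its lowest and highest 2% was close to 500. Groups were taken from the labels. Without 64 control probe sets, 45037 remained. After adding 16 to each intensity and taking log2, which makes folds of dim probe sets too small, all were fitted without a brightness filter in limma 3.58.1 (R 4.3.3 and statmod 1.5.0), using an intensity trend and Benjamini-Hochberg adjustment. The fit was also run on simulated data with the same spread in both groups. In the real arrays the IP spread was larger, so that run does not check the calls given here. Correlations used exact permutation in numpy 2.4.6, with ranks from scipy 1.17.1. The number of arrays limits the precision.

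The members and all gene lists were chosen with earlier results of these data known, and the grouping by cell compartment and the role groups were made after the values were seen. Named genes were 15 always listed, of which Hsp90ab1 had no probe set here, then up to 3 of the largest rises and 3 of the largest falls of each family, and of the pathway lists, among those past adjusted p 0.05 and 2-fold whose groups did not overlap. Each is given with all its probe sets, and other members appear in counts. This gave 26 genes with 81 probe sets. Symbols are those of the platform annotation: all 169 matched a current gene by Entrez ID and 0 were renamed.

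Alternatives were quantile normalization, median centring, scaling on 18 hybridization control probe sets, pseudocounts of 1 and 64, filters at an intensity of 100, array weights, no trend, the replicate number as a block, other choices of probe set and leaving out each array. Leaving out 4 IP arrays together was chosen after seeing the data, as were the scalings of the counts by brightest probe set. The labels do not say whether IP and WB samples of the same replicate number were paired. The correlation of same-numbered arrays' deviations ran from -0.05 to 0.08. It cannot decide this, since the IP arrays varied more than the WB arrays.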

Additional observations from a re-analysis of the deposited data

Results flagged for a closer look

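In 14 of the 162 groups of 9 arrays examined (81 probe sets in 2 groups), 1 array lay far from the others, its gap to the nearest, over the group's range in log2(intensity + 16), exceeding Dixon's 95% critical value. Chance alone gives about 1 in 20.

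In IP, Dnajb5 1421961_a_at was high on replicate 1, at 607 against 367 on the next array, and Hsph1 1423566_a_at on replicate 2, at 14870 against 9666. Dnajc3 1433887_at was low on replicate 5, at 801 against 1807. Replicate 6 was low for Dnajc5 1460498_a_at, at 24.8 against 139, and for Hsp90b1 1438040_a_at, at 2726 against 4746.

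In WB, replicate 9 was high for Dnaja1 1459835_s_at (9800 against 8250) and for Dnajc5 1436180_at (3114 against 2609), and low for Hspa9 1453811_at (36.5 against 179). Replicate 8 was low for Dnajb6 1434035_at (290.7 against 366) and for Hspa1b 1427126_at (34.1 against 96.1), and high for Dnajc18 1425076_at (548 against 396). Dnajb4 1439524_at was low on replicate 1 (112 against 219.8), Dnajc10 1452230_at was high on replicate 2 (217 against 78.6) and Hspa12a 1430040_at was low on replicate 3 (59.2 against 142). Of these arrays, only leaving out IP replicate 5 changed the call of the probe set it stood apart in, that of Dnajc3.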

How the results depend on the processing

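Pseudocounts of 1 and 64, both brightness filters, no intensity trend and array weights kept the member counts at 26 to 28 rises and 69 to 74 falls. Leaving out each array in turn gave 24 to 29 rises and 67 to 77 falls, and for the pathway genes 24 to 26 and 43 to 52. A fit with the replicate number as a block gave 26 rises and 75 falls. Median centring gave 47 rises and 45 falls of members, 38 rises of pathway probe sets, and 33 rising and 9 falling genes by brightest probe set. The hybridization controls gave 6 and 129, 4 rises and 81 falls of pathway probe sets, and 6 and 43 genes. Counting only the brightest probe sets left 17 falls, and averaging the probe sets of a gene gave 7 rising and 28 falling genes. The cause of these shifts was not tested.

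Single named probe sets changed sign in several settings, whether or not they were called. With the hybridization controls these were Dnaja1 1460179_at (-0.46), Dnaja2 1417182_at (-0.56), Dnajb4 1451177_at (-0.87), Dnajb6 1448234_at (-0.28), Dnajc3 1433887_at (-0.68), Dnajc5 1436180_at (-0.10), Hsp90aa1 1433251_at (-0.765), 1437497_a_at (-0.63), Hsp90b1 1415889_a_at (-0.93), Hspe1 1450668_s_at (-0.73), Hsph1 1423566_a_at (-0.65), Hspa12a 1434051_s_at (-0.77), Hspa1b 1427127_x_at (-0.91), Hspa4 1440575_at (-0.15), Hspa9 1418504_at (-0.83) and Hspb1 1425964_x_at (-0.41). With quantile normalization they were Dnajb4 1451177_at (-0.57), Dnajc10 1426904_s_at (0.16), Hsp90aa1 1437497_a_at (-0.53), 1438902_a_at (-0.15), Hsp90b1 1415889_a_at (-0.88), Hspe1 1450668_s_at (-0.15), Hsph1 1423566_a_at (-0.55), Hspa12a 1434051_s_at (-0.085), Hspa14 1439826_at (0.34), Hspa1b 1427126_at (0.21), Hspa4 1435194_at (-0.027), Hspa8 1455789_x_at (-0.018), Hspa9 1418504_at (-0.27) and 1453811_at (0.058), and with median centring Dnaja2 1429476_s_at (0.20), Dnajc10 1426904_s_at (0.35), Dnajc3 1419162_s_at (0.19), Hsp90b1 1438040_a_at (0.14), Hspa14 1439826_at (0.35), Hspa1b 1427126_at (0.10), Hspa4 1416146_at (0.15), Hspa8 1420622_a_at (0.15) and Hspa9 1453811_at (0.074). Without the 4 IP arrays they were Dnajb4 1451177_at (-0.057), Dnajc10 1426904_s_at (0.023) and Hspa9 1418504_at (-0.053). Hspa1b 1427127_x_at gave -0.001 with a pseudocount of 1 and -0.009 with array weights. Leaving out 1 array changed the sign of Dnajb4 1451177_at (-0.013 to 0.117), Dnajc10 1426904_s_at (-0.161 to 0.006), Hsp90b1 1415889_a_at (-0.057 to 0.055), Hspa14 1439826_at (-0.160 to 0.035) and Hspa1b 1427127_x_at (-0.134 to 0.261), all without a call. It changed the call of 12 of the 81, of which 2 lost it and 10 gained it. Within-group correlations with Hspa1b also changed sign, none of them called: without the 2 farthest arrays Hsph1 (-0.208), Hsp90aa1 (-0.764), Hspb1 (-0.042), Hspa8 (-0.397), Hspe1 (0.065), Hspd1 (0.094) and Dnaja1 (-0.445) in IP and Dnajb1 (-0.161) in WB, and with median centring Hspe1 (0.112) and Hspd1 (0.064) in IP. Depth is not known for arrays: 16 members with a median under 100 in both groups are near the floor of what can be measured here.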
